A study of Mus musculus with 4 samples.

Results

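Cirbp and Rbm3 encode the cold-inducible RNA-binding proteins, and both were measured in livers of fasted and refed mice. The genes were found by name among the gene spots of 4 two-colour Agilent whole mouse genome arrays, and all of their probes were taken, which gave 4 of 39429 probes and 2 of 31709 gene names. Cirbp had 1 probe and Rbm3 had 3. The mice were male C57BL/6J animals of 8 to 12 weeks, with no genetic alteration in the labels. Livers of the fasted group (n = 4) were taken after 24 h without food. Livers of the re-fed group (n = 4) were taken after the same 24 h fast followed by 2 h of access to food. Both groups had thus been fasted. They differed in the final meal and in the 2 h that passed before sampling, which cannot be told apart. Each array carried RNA of 1 fasted and 1 refed liver, paired at random, with the fasted liver labelled in Cy5 on arrays 1 and 2 and in Cy3 on arrays 3 and 4. Every liver was whole tissue of an individual mouse.

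CIRBP and RBM3 are small, closely related proteins with a single RNA recognition motif and a glycine-rich tail. Mild cooling of cells and tissues raises the mRNA of both, and heat lowers Cirbp mRNA. Both proteins bind mRNA and affect its stability, translation and polyadenylation. In mouse liver, Cirbp mRNA follows the daily rhythm of body temperature, and CIRBP binds the mRNA of the circadian regulator Clock. Body temperature was not among the measurements used here.

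The probes are 60-base oligonucleotides, and their positions are given on the mm9 build that the array design names. The first 30 bases of each are shown because 3 different stretches of Rbm3 were measured, each with its own reading. The Cirbp probe A_51_P272106 lies at chr10:79634274-79634333 on the plus strand. The Rbm3 probes lie on the minus strand of the X chromosome, with A_51_P262340 at chrX:7719656-7719715, A_55_P2117525 at chrX:7720785-7720844 and A_52_P280360 at chrX:7718033-7718092.
Cirbp A_51_P272106: atttatattgtccttttttaccgaagacat
Rbm3 A_51_P262340: atggccagaaagtgatttctgaatgtacct
Rbm3 A_55_P2117525: atgacagtcgtcctggaggatatggatatg
Rbm3 A_52_P280360: agttggatggttttctagctgtgtgtgtat
Gaps of 1563 and 1069 bases of genome separated neighbouring Rbm3 probes. The array's annotation tied A_51_P262340 and A_55_P2117525 to the same 4 RefSeq transcripts of Rbm3, and tied A_52_P280360 to 1 other transcript that was not among those 4. Which exon, or which coding or untranslated stretch, each probe lies in was not analysed here.

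A stretch of the Cirbp promoter is shown because a short element for mild cold, TCCCCGCC, is known from the gene's 5′ flank. RefSeq's promoter table (GRCm38.p6, a different build from that of the probes) held 2 start sites for Cirbp, each with a window that runs from 250 before to 50 after the start. The 250 bases before the first start, at chr10:80167589-80167838 on the plus strand, read as follows, with capitals at TCCCCGCC, at the CCAAT box and at the GC box GGGCGG in either orientation.
Cirbp promoter: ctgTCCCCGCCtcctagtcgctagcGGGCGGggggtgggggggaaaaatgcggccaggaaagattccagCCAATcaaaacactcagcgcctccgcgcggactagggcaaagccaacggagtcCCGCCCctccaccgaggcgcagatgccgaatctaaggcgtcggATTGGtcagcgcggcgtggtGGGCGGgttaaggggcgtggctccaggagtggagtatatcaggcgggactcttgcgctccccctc
Both strands were searched for 7 motifs, and none of the capitals overlap. TCCCCGCC occurred 1 time in this window and not in the second, and 5.38% of the 32851 promoter windows in the table held it. CCAAT occurred 2 times in the first window (37.4% of all windows held it), and GGGCGG 3 times in the first and 4 times in the second (35.7%). The full cAMP response element TGACGTCA was found in neither window (1.79% of all windows), and its part TGACG, which is contained in the full element, was found 1 time, in the second window (20.8%). The heat shock element units GAANNTTC and TTCNNGAA were found in neither window (7.86% and 8.52%). These are matches of letters in a window and say nothing of binding. A promoter of Rbm3 is not shown.

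Cirbp mRNA was about 4 times as high in fasted as in refed liver, in each of the 4 pairs of livers. The scanner's median signal of the Cirbp probe was 1105.5, 1319.5, 2216 and 2372.5 units in fasted livers 1 to 4, over local backgrounds of 26 to 30.5. In refed livers 1 to 4 it was 359.5, 375.5, 419 and 482 units, over backgrounds of 22.5 to 36. The lowest fasted liver was therefore above the highest refed liver, although each dye served 2 livers of each condition and the arrays differed in brightness. After loess within arrays and scaling between them, the log2 intensity was 10.88, 10.43, 10.96 and 10.79 in the fasted livers (10.76 ± 0.24, SD, n = 4) and 8.94, 8.68, 8.66 and 8.55 in the refed livers (8.71 ± 0.17, SD, n = 4). The groups did not overlap on this scale either. A change in the same direction on all 4 arrays was common, at 5844 of the 19721 probes tested. How many probes showed no overlap of the groups was not counted.

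The log2 ratio of fasted over refed liver for Cirbp was 1.94, 1.75, 2.30 and 2.24 on arrays 1 to 4. Its mean was 2.06 ± 0.26 (SD, n = 4; SE 0.11 from the fit), which is 4.16-fold with a 95% interval of 3.45 to 5.01, and the single pairs gave between 3.35-fold and 4.92-fold. In limma's moderated test, adjusted by Benjamini and Hochberg over the 19721 probes well above background on all arrays in at least 1 condition, the adjusted p was 0.00188, and the probe was called higher in fasted liver. A call here means an adjusted p below 0.10 and a change of at least 1.5-fold, which 335 probes, or 1.7% of those tested, met as higher in fasted liver, and 410, or 2.08%, as lower. Cirbp stood 14th from the top by log2 ratio, 27th by the size of the change in either direction and 9th by p. RNA came from whole liver, so fewer cells of a type and less RNA per cell cannot be told apart.

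**Figure D1:**
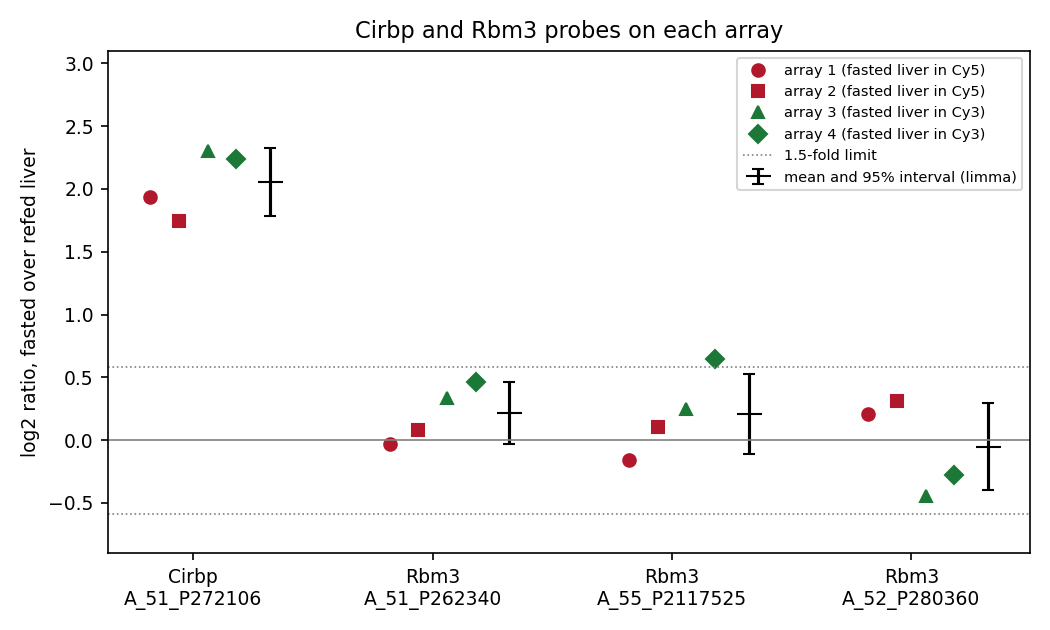
Log2 ratio of fasted over refed liver for the 4 probes of Cirbp and Rbm3, with 1 symbol per array, red where the fasted liver was labelled in Cy5 and green where it was labelled in Cy3. Black bars give the mean and the 95% interval of the limma fit and dotted lines the 1.5-fold limit; all 4 Cirbp values lie between 1.75 and 2.30, and the Rbm3 values lie between −0.45 and 0.64.

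Rbm3 was measured on its brightest probe, A_51_P262340, at a median signal of 1318, 2022, 2723 and 3314 units in fasted livers 1 to 4. The refed livers 1 to 4 gave 1800.5, 1879, 2132.5 and 2438 units. These ranges overlap, and so do the normalized log2 intensities, with 11.18 ± 0.13 (SD, n = 4) in fasted and 10.97 ± 0.14 (SD, n = 4) in refed liver. The probe was 54.9 to 106.9 times its local background in fasted livers and 62.7 to 92.3 times in refed livers, so that the reading was not limited by dimness.

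The log2 ratio of Rbm3 on that probe was −0.03, 0.08, 0.34 and 0.46 on arrays 1 to 4, with a mean of 0.21 ± 0.23 (SD, n = 4; SE 0.10). This is 1.16-fold, with a 95% interval of 0.98 to 1.38 that ends below the 1.5-fold limit, and the adjusted p in limma was 0.299. Rbm3 was not called. The second bright probe, A_55_P2117525, gave log2 ratios of −0.16, 0.10, 0.25 and 0.64, with a mean of 0.21 ± 0.34 (SD, n = 4), an interval of 0.92-fold to 1.44-fold and an adjusted p of 0.438. Both probes, which share their annotated transcripts, thus gave nearly the same mean, and both had their lowest value on array 1 and their highest on array 4.

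The probe of the other annotated Rbm3 transcript, A_52_P280360, was dim. Its median signal was 51, 55, 60 and 75.5 units in fasted livers 1 to 4 and 42, 45, 74 and 73 in refed livers 1 to 4, which is between 1.7 and 2.5 times the local background, and it was well above background in 3 of 4 fasted and 4 of 4 refed livers. The log2 ratio was 0.21, 0.31, −0.45 and −0.28 on arrays 1 to 4. Its mean of −0.05 ± 0.37 (SD, n = 4; adjusted p = 0.891, limma; interval 0.76-fold to 1.23-fold) changed sign under 6 of 27 other processing settings and gives no direction.

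**Figure D2:**
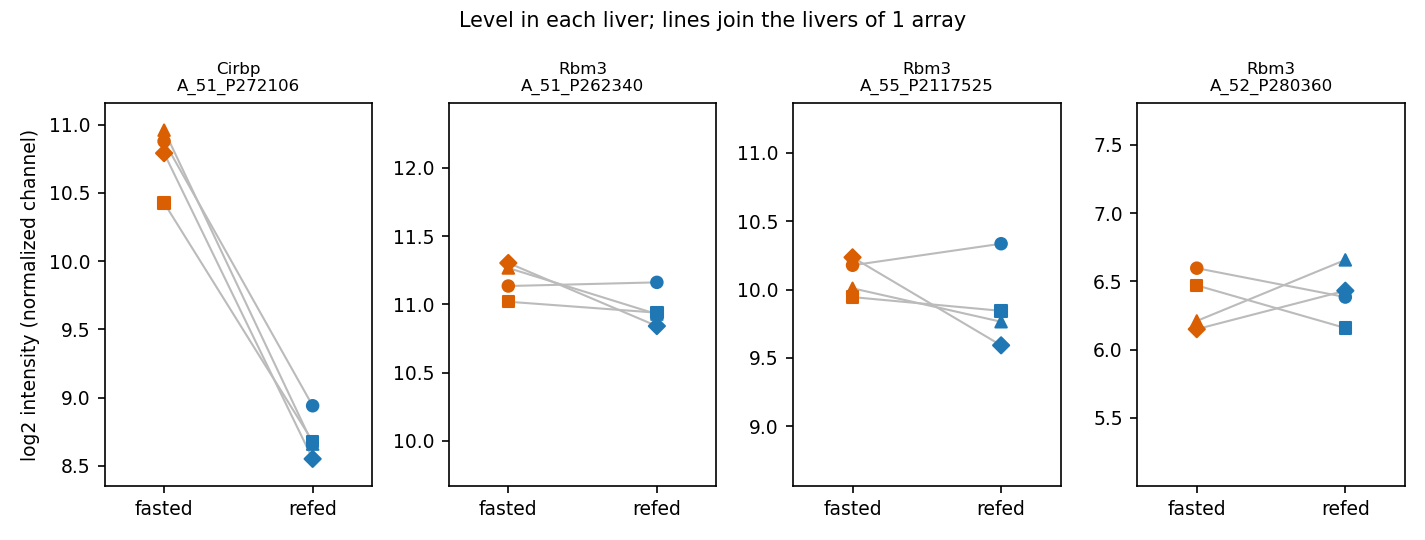
Normalized log2 intensity in each fasted (orange) and refed (blue) liver for each probe, with the livers of 1 array joined by a line and sharing a symbol (circle, square, triangle and diamond for arrays 1 to 4); every panel spans the same range of log2 units. Cirbp falls in all 4 pairs with no overlap of the groups, while fasted and refed livers overlap on each Rbm3 probe.

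Fasted over refed liver, the change of Cirbp exceeded that of Rbm3 on every array. The difference between the log2 ratios of the brightest probes was 1.96, 1.67, 1.96 and 1.78 on arrays 1 to 4, with a mean of 1.84 ± 0.15 (SD, n = 4). The exact two-sided sign-flip test gave p = 0.13, the smallest value that 4 arrays allow, so that this test alone could not pass 0.05. With the background model fitted to all spots, a setting added after seeing the data, the difference was 1.96, 1.67, 0.35 and 0.16 on arrays 1 to 4 (mean 1.04). In the main setting the difference varied less between arrays than the log2 ratio of Cirbp (SD 0.26) or Rbm3 (SD 0.23) did.

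The dye orientation moved with part of that variation. For Cirbp the mean log2 ratio was 1.84 where the fasted liver was in Cy5 and 2.27 where it was in Cy3. For Rbm3 these means were 0.03 and 0.40 on the brightest probe, −0.03 and 0.44 on A_55_P2117525, and 0.26 and −0.36 on A_52_P280360. In a limma fit with a dye term, 2912 probes, or 14.8% of those tested, had a dye effect at an adjusted p below 0.10. The adjusted p of the dye effect was 0.0994 for Cirbp, 0.12 and 0.157 for the brighter and the second Rbm3 probe, and 0.0501 for the dim one. With that term, the adjusted p for fasted against refed was 0.000308 for Cirbp and 0.0621 for the brightest Rbm3 probe, which stayed at 1.16-fold and uncalled. The dye and the particular livers on arrays 1 and 2 or 3 and 4 cannot be told apart.

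One further probe on the array, A_55_P1985001 at chr10:79635422-79635481 on the plus strand, carries a transcript identifier in place of a gene name but is described as Cirbp. It was picked out after its values were seen and is not counted among the members. It begins 1088 bases past the end of the Cirbp probe. Its median signals were 56 to 123.5 units in fasted and 49 to 97.5 in refed livers, which is dim, and its log2 ratios of 0.21, 0.23, 0.04 and 0.10 (mean 0.15 ± 0.09, SD, n = 4; adjusted p = 0.327, limma) were far below those of the Cirbp probe. The 4.16-fold change therefore rests on 1 probe of the gene.

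**Figure D3:**
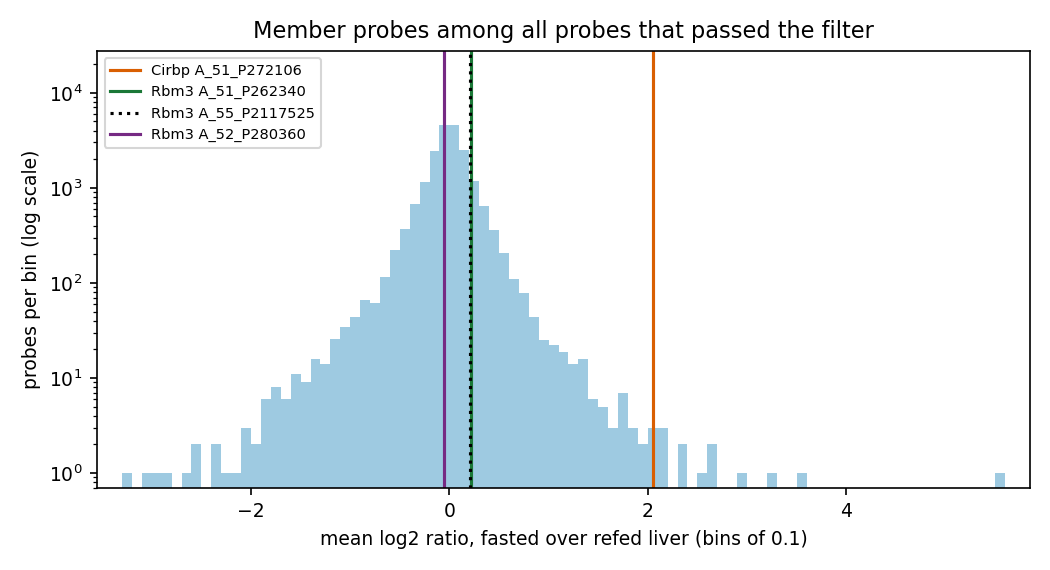
Distribution of the mean log2 ratio of fasted over refed liver for the 19721 probes tested, in bins of 0.1 and with a log scale for the number of probes, with vertical lines at the 4 probes of Cirbp and Rbm3. Cirbp, at 2.06, lies in the thin right tail, and the 3 Rbm3 probes, at −0.05 to 0.21, lie in the centre.

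The genes whose 4 log2 ratios lay nearest to those of Cirbp were Gpcpd1, a glycerophosphocholine phosphodiesterase, Txnip, the thioredoxin-interacting protein, the mitochondrial carriers Slc25a47 and Slc25a25, and the immediate early transcription factor Egr1, among 15737 probes of named genes. Likeness was the root mean square of the 4 differences, which was 0.267 for Gpcpd1 and 0.468 to 0.525 for the others. The mean log2 ratio of Gpcpd1 was 1.80, that of Txnip 1.66, that of Slc25a47 2.14, that of Egr1 2.07 and that of Slc25a25 1.68. Nearest to Rbm3 were Insr, the insulin receptor, at a root mean square of 0.0276, followed by Ilrun, Ddx3y, Wdfy4 and Sbno2, at up to 0.0446. None of these 5 was called (adjusted p = 0.249 to 0.321, limma).

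No other listed RNA-binding motif gene reached the log2 ratio of Cirbp. Of 42 genes named Rbm or close to it, 33 were tested, 1 was called higher and 1 lower (1.7% and 2.08% of all probes tested), and the median log2 ratio was −0.09, beside −0.001 over all probes tested. Rbms1, which binds single-stranded nucleic acid, was called higher at 0.74 (adjusted p = 0.0143), with its other probes at 0.36 and 0.48. Rbm10, a splicing regulator, was called lower at −0.63 (adjusted p = 0.018). The lowest value was that of Rbm14, at −0.68 ± 0.60 (SD, n = 4), which did not pass (adjusted p = 0.136).

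SR proteins and the kinases that phosphorylate them govern splice site choice, and their activity is known to change with temperature. Of 18 tested genes of this list, 1 was called higher and 1 lower (1.7% and 2.08% of all probes tested), with a median log2 ratio of −0.05. Srsf5, a splicing factor, was called higher at 0.79 ± 0.56 (SD, n = 4; adjusted p = 0.0794), and Tra2a, a splicing activator, was called lower at −0.80 ± 0.53 (SD, n = 4; adjusted p = 0.069). Both adjusted p values lie close to the threshold, and the number of calls in the list ranged from 0 to 5 over the other settings.

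CIRBP enters stress granules, where stalled mRNA gathers under stress. Of 13 stress granule genes tested, 2 were called lower, beside 2.08% of all probes tested. G3bp1, a core protein of the granules, was called lower at −0.60 (adjusted p = 0.0159), with its other probe at −0.34. Tardbp, which encodes the RNA-binding protein TDP-43, was called lower at −0.60 on its brightest probe (adjusted p = 0.0195), whereas its other probes gave −0.08 and 0.11. The median of the list was 0.00.

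None of 4 tested enzymes and carriers that act on CIRBP itself was called, beside 1.7% of all probes tested called higher and 2.08% lower. These 4 genes were the arginine methyltransferase Prmt1 (log2 ratio −0.11, the lowest of the list), the import receptors Tnpo1 (0.14, the highest) and Tnpo2, and the kinase Gsk3b. Of 6 mRNAs known to be bound by CIRBP or RBM3, 5 were tested and none was called, with Rtn3 the highest at −0.02 and Txn1, thioredoxin, the lowest at −0.25. Clock, one of these, stood at −0.10 ± 0.09 (SD, n = 4; adjusted p = 0.503, limma). Of the receptors that take up the signal of extracellular CIRBP, none of 3 was called. Trem1 was at 0.02 and Ly96, the partner of the receptor Tlr4, at −0.48 (adjusted p = 0.0444, limma), under the 1.5-fold limit. With 1.7% of all probes called higher and 2.08% lower, the absence of calls in lists this small says little about these genes.

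Genes of heat shock proteins and co-chaperones, listed here as heat-inducible, lay on the opposite side from Cirbp. The list was chosen with earlier results of these data known, so its calls are no independent support. A link to temperature was not tested. Of 17 tested, 15 were called lower in fasted liver and none higher, against 2.08% of all probes called lower, and the median log2 ratio was −1.33. Calls were made for Hspa1a, Hspa8, Hsph1, Hsp90aa1, Hsp90ab1, Dnajb1, Dnaja1, Hspa4l, Hspe1, Hspb1, Bag3, Chordc1, Stip1, Ahsa1 and Fkbp4. Hsph1, a nucleotide exchange factor of HSP70, was lowest at −2.28 ± 0.35 (SD, n = 4; adjusted p = 0.00229, limma). Hspa1a, the inducible HSP70, stood at −1.84 and Hsp90aa1, the inducible HSP90, at −2.08. The genes not called were Hspa4, at −0.18 on its brightest probe, the highest value of the list, and Hspd1, at −0.44. The other Hspa4 probes gave −0.72 and −0.33. Medians of this list by array were −1.11, −1.08, −1.55 and −1.75. Arrays 3 and 4, where the fasted liver was in Cy3, thus gave the larger changes here, as they did for Cirbp. Medians of 10 genes often used as references were also lower there, at 0.21, 0.24, −0.05 and −0.28 on arrays 1 to 4. The median over all probes tested lay between −0.008 and −0.003 on each array. The cause of this shift was not tested.

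Of 14 circadian clock genes tested, 3 were called lower in fasted liver and none higher, beside 2.08% and 1.7% of all probes tested, with a list median of −0.15. Dbp, a clock output factor, was at −1.37 (adjusted p = 0.0163) and −1.53 on its other probe. Per2, a core repressor of the clock, was at −1.29 (adjusted p = 0.0174), and Bhlhe40, a transcriptional repressor, at −0.68 (adjusted p = 0.0642). Per1 was the highest at 0.40 ± 0.67 (SD, n = 4) and was not called (adjusted p = 0.404). Of 10 genes often used as references, only Actb was called (2.08% of all probes tested were called lower), at −0.64 (adjusted p = 0.0176), and Gusb was the highest at 0.27. The hour of sampling is not in the labels. By the design, the refed livers were taken 2 h further from the start of the fast than the fasted livers. Meal and time of sampling cannot be told apart.

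**Figure D4:**
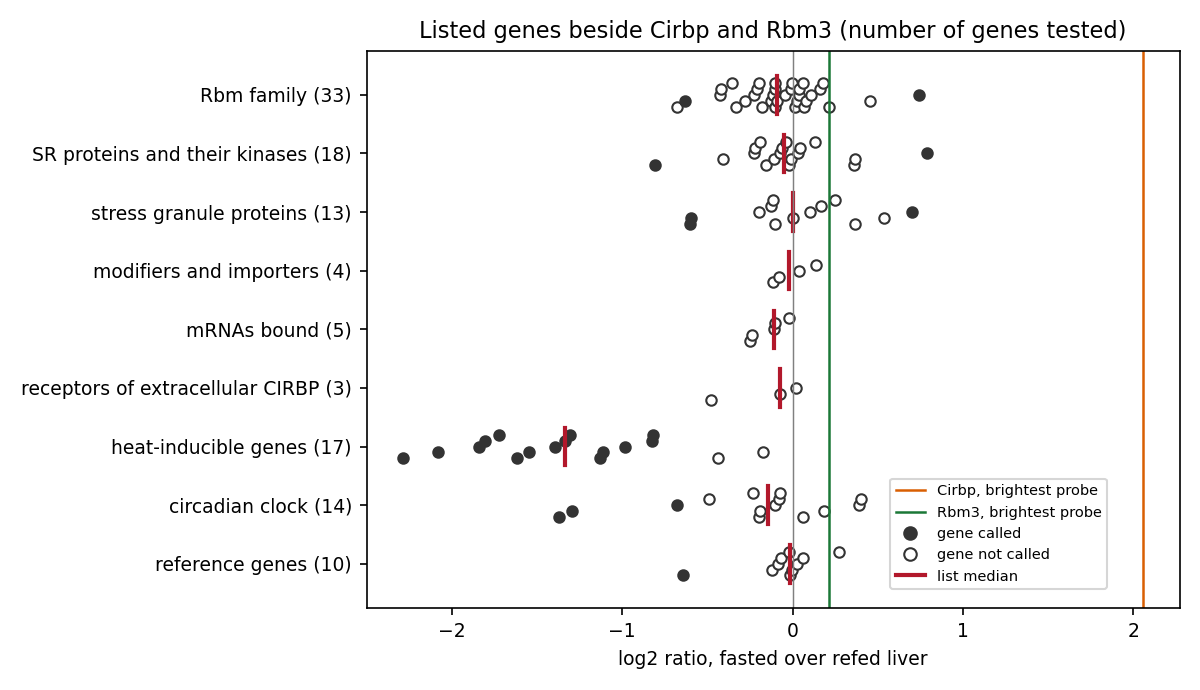
Log2 ratio of fasted over refed liver for each tested gene of 9 lists, with the number tested in brackets, filled circles for genes called, open circles for genes not called and a red bar at each list's median. Vertical lines mark the brightest probes of Cirbp (2.06) and Rbm3 (0.21); no listed gene reaches Cirbp, and 15 of 17 heat-inducible genes are called lower.

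The tissue label was checked on 10 hepatocyte markers, all well above background in every liver. Of these only Tat, a fasting-responsive amino acid enzyme, was called (log2 ratio 0.84, adjusted p = 0.0451, limma). It was called higher, beside 1.7% of all probes tested. The summed signal of 11 pancreatic acinar markers was 39870 units in refed liver 3 and 976.1 to 1124 in the other refed livers, against 994.1 to 1907 in the fasted livers, and 11 of 11 were above background in refed liver 3. Refed liver 3 had a Cirbp level of 8.66, between those of other refed livers, and without array 3 Cirbp remained called, at 1.97 (adjusted p = 0.0101). Sums of 5 red blood cell markers were 61410 and 90130 units in fasted livers 1 and 3 and 12610 to 27260 in the other 6 livers. Immune markers summed to 3879 to 5243 units in fasted and 3472 to 4879 in refed livers, and adipose markers to 944.5 to 1251 and 911.5 to 1310. On arrays 2 and 4, where the acinar and red blood cell sums of the fasted liver lay within the range of the refed livers 1, 2 and 4, the log2 ratio of Cirbp was 1.75 and 2.24. The part of these cell types in the other results was not tested.

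The call of Cirbp held under 28 of 29 other processing settings, with log2 ratios of 1.93 to 2.23 in those. The exception was the background model (normexp) fitted to all spots, where a few spots with a local background of up to 443380 units were kept. There the background SD that the model estimated was 1075 to 4298 units on arrays 3 and 4, against 1.08 to 1.88 once those spots were left out, and the log2 ratio of Cirbp was 1.94, 1.75, 0.41 and 0.45 on arrays 1 to 4 (mean 1.14, adjusted p = 0.559). Rbm3 was not called under any of 29 settings, and its brightest probe stayed between 0.07 and 0.29. Many settings changed only the filter, the fit or the threshold and reused the same 4 log2 ratios. Stricter thresholds could not have given Rbm3 a call, and dropping the fold limit could not have removed that of Cirbp. These counts are therefore not counts of independent checks.

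**Figure D5:**
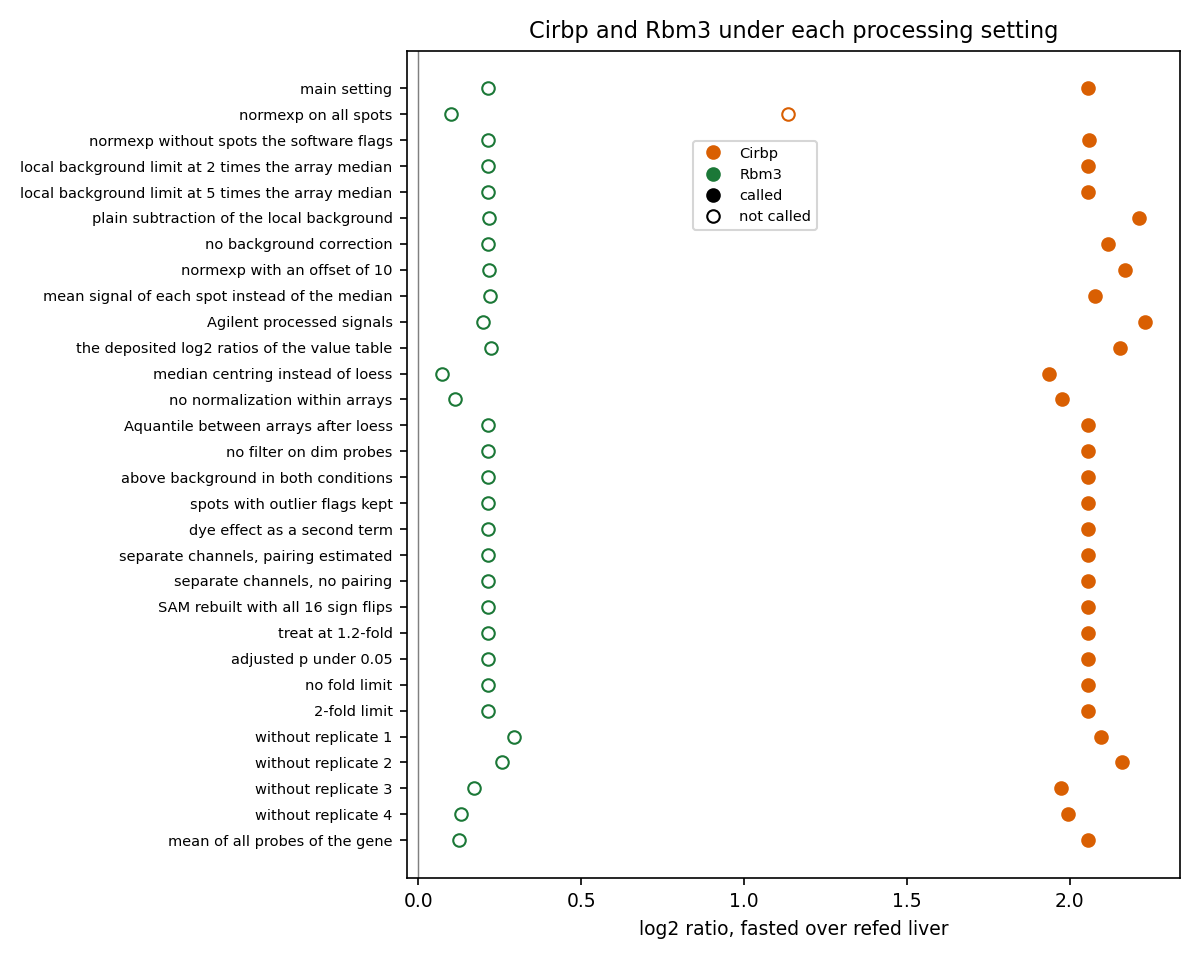
Log2 ratio of fasted over refed liver for Cirbp (orange) and Rbm3 (green) under the main setting and 29 others, filled where the gene was called and open where it was not. Cirbp lies between 1.93 and 2.23 and is called in all but the setting with the background model on all spots (1.14), and Rbm3 lies between 0.07 and 0.29 and is never called.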

How the data were processed

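Total RNA (200 ng) of individual livers was amplified, labelled with Cy3 or Cy5 and hybridized by the authors. The deposited scanner files hold median and mean intensity and local background per spot, as measured by Agilent Feature Extraction, together with its background-subtracted signals. The authors also deposited log2 ratios, normalized by loess in limma according to their methods. These were an alternative here, and their background step is not given in the sources used here.

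Median signals were corrected by normexp (offset 50) after leaving out spots with a local background above 3 times the array median (0 to 29 spots an array), then by loess within arrays (limma 3.58.1, R 4.3.3), with control and flagged spots at weight 0, and spots of a probe were averaged. Ratios were turned to fasted over refed. Probes well above background on all 4 arrays in at least 1 condition were fitted with lmFit and eBayes and adjusted by Benjamini and Hochberg. Levels were channel log2 intensities after Aquantile. Each listed gene is given by its brightest tested probe. The study's SAM (10% false discovery, 1.5-fold) was rebuilt as an alternative. The code was tested on simulated data. Members and lists were chosen with earlier results of these data known. Named genes were all probes of both members, list genes called or at either end of a list, and the 5 nearest genes to each member; 1 such list gene is not reported here. Tnpo2, Gsk3b, Clock, Tlr4 and Hspd1 fall outside this rule and were named after their values were seen. With 4 arrays, precision is limited by their number. All 4 arrays were on 1 slide. Local background, filter, dye, pairing, threshold and left-out arrays were varied.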

Additional observations from a re-analysis of the deposited data

How the results depend on the processing

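Cirbp kept its direction under all 29 alternatives and its call under 28, many of which reused the same log2 ratios and are not independent checks. The exception was normexp on all spots (1.14, adjusted p = 0.559, limma), where the estimated background SD of arrays 3 and 4 rose to at least 1075 units. Leaving out each replicate in turn gave 1.97 to 2.16 for Cirbp and 0.13 to 0.29 for Rbm3, which was called under none. The dim Rbm3 probe A_52_P280360 turned to 0.13 with normexp on all spots, 0.038 with plain subtraction, 0.0015 in the deposited ratios and 0.01 without normalization within arrays, and, with a replicate left out, ranged from −0.17 to 0.081, above 0 without replicate 3 and without replicate 4 (0.026). The difference between Cirbp and Rbm3 ranged from 1.80 to 2.03 over 7 alternatives and was 1.04 with normexp on all spots, added after seeing the data.

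Counts of probes called higher and lower, 335 and 410, were 5 and 15 with normexp on all spots, 550 and 714 with plain subtraction, 691 and 884 on Agilent's processed signals, 133 and 181 with treat at 1.2-fold, 935 and 1208 with no fold limit, and 99 and 132 at 2-fold. Median centring gave 230 and 635, and no normalization within arrays gave 247 and 527, a larger share of lower calls. Leaving out a replicate gave 208 to 413 higher and 256 to 525 lower, with the fewest without replicate 3. Without the replicate block for the array pairing, separate channels gave 321 and 394. The cause of these shifts was not tested. Heat-inducible genes kept a negative median under all 28 alternatives, −1.49 to −0.90, with 11 to 15 called when a replicate was left out and 0 with normexp on all spots.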
